A study of Danio rerio with 5 samples.

Results

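Among 12234 single GFP+ cells sorted from zebrafish eyes, 495 cells (4.05%) carried matrix genes of the corneal stroma and none of the gene combinations used to set other mesenchyme apart. The cells were chosen with a gate on their own counts of unique molecular identifiers (UMIs, one per captured RNA molecule). A cell passed with a UMI of at least 2 of 6 gate genes, namely dcn, lum, vcanb, col5a2a, scara5 and sema3d. It also had to lack UMIs of the cartilage genes col9a2, col9a3 and cnmd, and to lack the pair of matn4 and cthrc1a. Finally, scinla, a gene high in annular ligament cells, had to stay under 1% of the UMIs of the cell, and krt5, krt91 and pfn1 of the surface epithelium together under 4%. The gate was meant to catch stromal keratocyte-like cells. Only part of the 495 cells carried the stromal genes together, so they are called matrix gene cells here.

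The study followed the anterior segment of the eye from 48 to 144 hours post fertilisation (hpf), in steps of 24 h. All embryos were of the AB strain and carried Tg[foxc1b:GFP], a reporter in which regulatory sequence of foxc1b drives GFP. All were raised in PTU, which blocks pigment, from the first day onwards. Whole eyes of pooled embryos were dissected and dissociated, and GFP+ cells were sorted by FACS for 10x single cell sequencing, so that any eye cell with GFP could enter. Each time point had 2 libraries, A and B, and no group was treated or mutant. Libraries 48 hpf A and 72 hpf A were listed with V2 chemistry and the other 8 with V3. A batch was common to 72 hpf B and 96 hpf A, another to 96 hpf B and 120 hpf A, and another to 120 hpf B and 144 hpf A. The transcript of eGFP, added to the reference by the authors, had 0 UMIs in the matrix gene cells and in all other cells, so the reporter could not be checked at the RNA level.

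Keratocytes are the fibroblasts of the corneal stroma. In vertebrates they build thin, evenly spaced collagen fibrils, and small leucine-rich proteoglycans such as decorin (dcn), lumican (lum) and keratocan (kera) on the surface of these fibrils keep the cornea clear. Versican (vcanb) binds hyaluronan in loose matrix, and col5a2a encodes a chain of type V collagen, which starts and thins the fibrils. Scara5 is a ferritin receptor of fibroblasts in mammals, and sema3d is a secreted guidance cue. Osr1, a zinc finger transcription factor of connective tissue, was named with the gate genes but not used in the gate. In fish as in other vertebrates, most anterior segment mesenchyme comes from the neural crest.

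The matrix gene cells were unevenly spread over the libraries. Library 48 hpf A held 37, 48 hpf B 16, 72 hpf A 40, 72 hpf B 66, 96 hpf A 41, 96 hpf B 105, 120 hpf A 77, 120 hpf B 92 and 144 hpf A 21 of them. Library 144 hpf B held 0 of its 102 cells, which allows a share of up to 2.94%. The 9 libraries with cells gave between 53718 and 434313 UMIs from matrix gene cells, and the median was 2177 UMIs per matrix gene cell, against 2456 in all other cells. Levels are in CPM, which means that the UMIs of a gene were divided by all UMIs of the same cells and multiplied by 1e6. Of the 92 barcode sequences found in more than 1 library, 0 belonged to a matrix gene cell. Doublets were scored by simulation, and a number set beforehand from the size of each library was called. This called 10 of the 495 cells (2.02%), against 175 of all 12234 (1.43%), a total fixed by the assumed rate.

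Most cells passed the gate narrowly. Of the 495 cells, 278 (56.2%) had UMIs of 2 gate genes, 127 of 3, 52 of 4, 23 of 5 and 15 of all 6. Among the 278 cells with 2, the pair was dcn and lum in 103 and dcn and col5a2a in 89. Just outside the gate were 659 cells that met every other condition but had a UMI of 1 gate gene. Those 659 cells had a median of 2297 UMIs, and the 278 cells just inside had 2973.5. Osr1 stood at 136 CPM in the cells with 2 gate genes, and at 39.1 CPM in the cells with 1. For col1a1a, a chain of type I collagen, the values were 2700 CPM just inside and 1770 CPM just outside. The conditions against other tissues took away more cells than they left. Of 1619 cells with 2 or more gate genes, 1124 failed them, and 675 of the 1619 had a cartilage gene, 496 reached the epithelial limit, 304 had both matn4 and cthrc1a and 43 reached the scinla limit.

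The gate was also applied to cells that should lack its genes, as free RNA in the droplets gives a background. Retinal cells served as a background and were taken, after the data had been seen, as cells with UMIs of at least 3 of 24 retinal genes. Of 4312 such cells, with a median of 3527.5 UMIs, 11 (0.255%) passed the gate. Osr1, which the gate did not use, was then read with every cell thinned at random to 1000 UMIs. It was found in 18% of 395 matrix gene cells (exact binomial 95% interval 14.3% to 22.1%), against 0.154% of annular ligament cells, 5.74% of cartilage cells and 0.026% of 3839 retinal cells outside the gate. Without thinning the shares were 32.3%, 0.265%, 8.55% and 0.326%. The median depths before thinning were 2861 UMIs in the matrix gene cells that could be thinned and 4037 in the retinal ones. These intervals cover counting error only.

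The gate genes were not carried equally. Dcn had a UMI in 417 of the 495 cells, col5a2a in 330, lum in 280, vcanb in 121, scara5 in 102 and sema3d in 100, and osr1 in 160. These shares describe the gate and carry no test. In libraries A and B, dcn had 599 and 462 CPM at 48 hpf, then 657 and 842 CPM (72 hpf), 1880 and 2540 CPM (96 hpf) and 1150 and 623 CPM (120 hpf), with 689 CPM in 144 hpf A. For col5a2a the values were 71.8 and 46.9 CPM at 48 hpf, then 270 and 950 CPM (72 hpf), 2930 and 707 CPM (96 hpf) and 1230 and 665 CPM (120 hpf), with 800 CPM in 144 hpf A. Both were highest in a 96 hpf library, and col5a2a was lowest in both 48 hpf libraries. Lum stayed within a narrower range, between 213 and 776 CPM. Vcanb and scara5 were near 0 in both 48 hpf libraries, with 3 and 0 UMIs of vcanb and 0 and 1 of scara5 in A and B, and scara5 reached 388 CPM in 96 hpf A.

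When the 495 cells were clustered among themselves, they fell into 6 groups with different leading genes. No correction for library, batch or chemistry was made, and their part in the groups was not tested. Cluster 1 (148 cells) was led by sema3d, fn1a, htra1b, zcchc24 and abi3bpb, and held 69 of the 90 cells with 4 or more gate genes. Its fibrillar and associated collagens summed to 55600 CPM, against between 7190 and 24000 CPM in the other 5 clusters, and to 45900 CPM once cells with a UMI of and2 were left out. Cluster 6 (48 cells) was led by gstt1a, osr1, ccl25b and pmp22a, and cluster 2 (101 cells) by ifitm1, ogna and hpdb. The remaining 3 clusters, 198 cells in all, were led by other genes. Cluster 3 (88 cells) was led by pcna and hmgn2 and also by cdk1 and top2a of dividing cells. Cluster 4 (57 cells) was led by icn, which stood at 29900 CPM there and at 609 CPM in the other matrix gene cells. Cluster 5 (53 cells) was led by the epithelial genes cldni and cyt1 and had krt4 at 14500 CPM, against 343 CPM in the others. Red blood cell genes summed to 3690 CPM in cluster 5 and at most 24.5 CPM in any other. By library they summed to 6850 CPM in the matrix gene cells of 72 hpf B and at most 11.1 CPM elsewhere. Library 72 hpf B gave 5 of the 53 cells of cluster 5. The epithelial limit of the gate ran through cells of that kind, as all 32 matrix gene cells with 2% or more of krt5, krt91 and pfn1 were in cluster 5 and 58 cells between 4% and 6% lay just outside. All levels by cluster are a description, since the cells were clustered on every gene with a UMI in at least 10 of them.

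The stromal genes of the gate were seen together mainly in cluster 1, and to a lesser degree in cluster 6. Cluster 1 had 2350 CPM of dcn, 1010 of lum, 1030 of vcanb, 3380 of col5a2a, 719 of scara5, 1030 of sema3d and 1040 of osr1. Cluster 6 had 1250 CPM of dcn, 1020 of lum and 1440 of osr1, but 86.8 of vcanb and 38.6 of scara5. Cluster 4 had the highest dcn of the 6 clusters, with 3040 CPM, and no UMI of osr1. Keratocan is a defining keratocyte gene in mammals, and it was low throughout. Kera stood at 74.6 CPM over all 495 cells and 36.3 CPM in the rest of the series, and by cluster at 279 CPM in cluster 4 and 48.9 CPM in cluster 1. Of 22 keratocyte genes known from mammals, 17 were measured and 16 had a UMI in the matrix gene cells, with ptgdsa at 0. With dcn and lum included, the 17 summed to 7390 CPM in cluster 1, 4900 CPM in cluster 4 and 3500 CPM in cluster 6. The sum was at most 2580 CPM in the other clusters. Over all 495 cells it was 3050 CPM, against 5300 CPM in cartilage cells, 2670 CPM in matn4 and cthrc1a cells and 420 CPM in annular ligament cells. Lum, itself a gate gene, had 438 CPM in the 495 cells and 701 CPM in cartilage cells. These genes were thus not particular to the matrix gene cells. Among the 17, tgfbi and b3gnt7 were highest in cluster 4 (919 and 107 CPM), and abi3bpb and thbs4b in cluster 1 (2130 and 998 CPM). No cluster was therefore given the name of a cell type.

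Matrix genes outside the gate also differed between the clusters, which had been formed on such genes too. Fibronectin had 1580 CPM (fn1a) and 1080 CPM (fn1b) in cluster 1, and 58.5 and 9.75 CPM in cluster 4. Elastin b (elnb), an elastic fibre gene, had 372 CPM in cluster 1 and at most 6.45 CPM in any other. The small proteoglycans were split between clusters. Fibromodulin a (fmoda) was highest in cluster 4 at 6470 CPM and mimecan (ogna) in cluster 2 at 658 CPM, while asporin (aspn) had 426, 390 and 424 CPM in clusters 1, 2 and 6 and 0 in clusters 4 and 5. Cluster 4 also held the most of the annular ligament list, with 14300 CPM summed over 14 genes, and 1490 CPM of gyg1b and 1230 CPM of acta2, a smooth muscle actin.

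**Figure D1:**
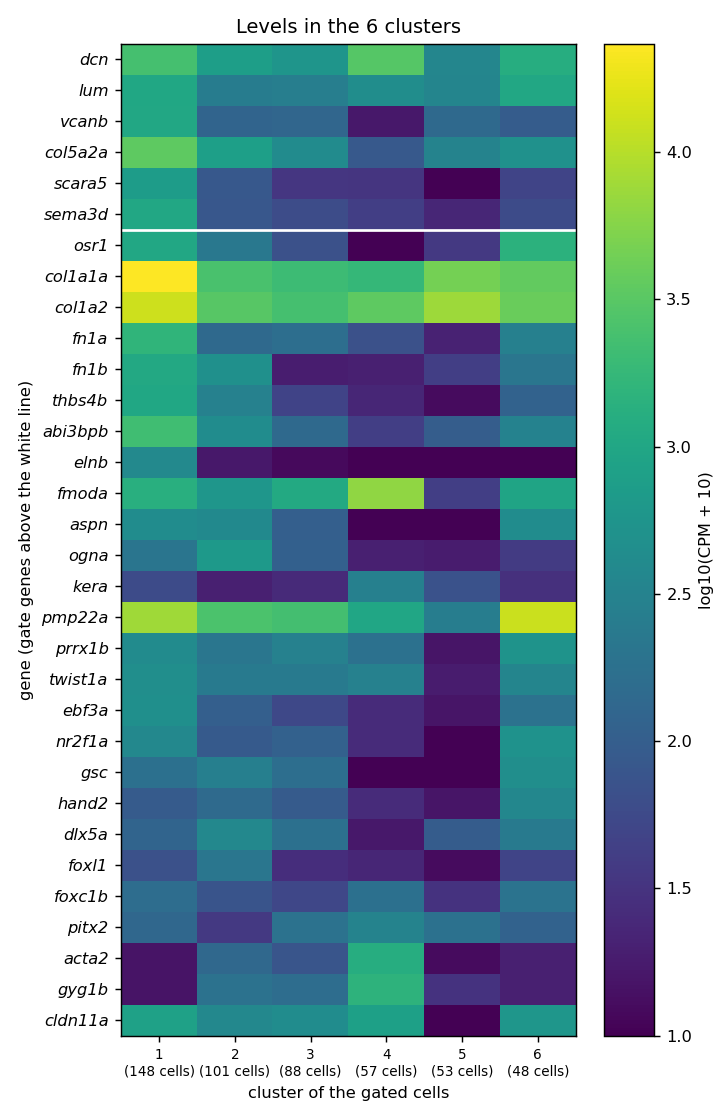
Levels of 32 genes (rows) in the 6 clusters of the matrix gene cells (columns, with the number of cells) as log10(CPM + 10), with the 6 gate genes above the white line. Cluster 1 is bright for the gate genes, fn1a, fn1b and elnb, osr1 is bright in clusters 1 and 6, and fmoda is brightest in cluster 4.

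Transcription factors of cranial mesenchyme differed between the clusters too, and they had also entered the clustering where enough cells had a UMI. Of 36 genes listed for the jaw arches, 34 were measured, and they summed to 3380, 3110 and 3120 CPM in clusters 1, 2 and 6, against 734 CPM in cluster 4. Dlx5a, a distal factor of the lower jaw, was highest in cluster 2 (367 CPM), and gsc and hand2 in cluster 6 (453 and 347 CPM). Foxl1 had 203 CPM in cluster 2 and at most 58.7 CPM elsewhere. Twist1a and prrx1b, mesenchymal factors of the crest, were found in every cluster but lowest in cluster 5, with 8.01 and 5.34 CPM. Foxc1b, whose regulatory sequence drives the reporter, stood between 21.3 CPM in cluster 5 and 183 CPM in cluster 6.

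The clusters did not come from the same libraries, and they had been formed with no correction for library, batch or chemistry. Cluster 6 had 13 cells in 48 hpf A, 6 in 48 hpf B, 28 in 72 hpf A and 1 in 72 hpf B, and 0 in later libraries. Cluster 1 had 0 cells in 48 hpf A, 48 hpf B and 72 hpf A, but 43 in 72 hpf B, 24 in 96 hpf A, 35 in 96 hpf B, 34 in 120 hpf A, 9 in 120 hpf B and 3 in 144 hpf A. Cluster 2 came from 96 hpf onwards, and 56 of its 101 cells were from 120 hpf B. The 2 libraries of 72 hpf thus differed as widely as the early and late ones. They have the same time and differ in chemistry and in batch, which cannot be told apart between them. Library 48 hpf B, of V3 chemistry and with 16 matrix gene cells, had 0 cells of cluster 1 and 6 of cluster 6. The part of chemistry was not tested. Cluster 4 leaned on 1 library, as 36 of its 57 cells were from 96 hpf B.

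**Figure D2:**
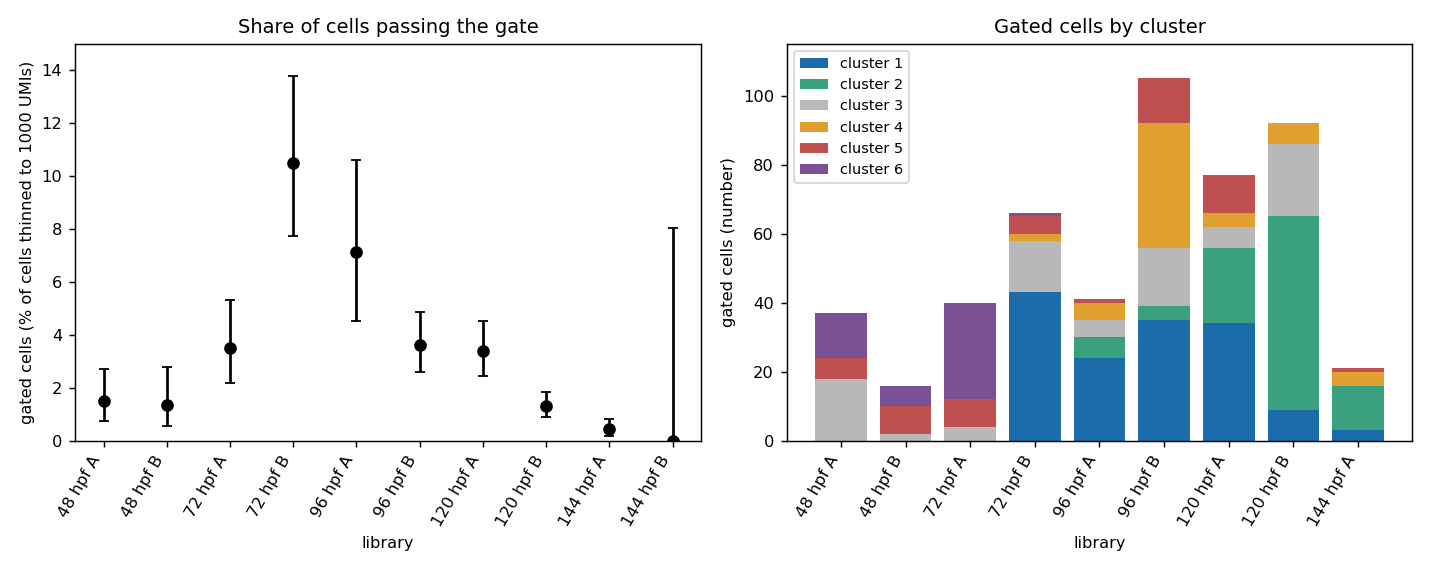
Left, the share of cells that pass the gate in each of 10 libraries (% of cells thinned to 1000 UMIs, bars are exact binomial 95% intervals). The shares run from 10.5% in 72 hpf B to 0% in 144 hpf B. Right, the number of matrix gene cells in 9 libraries by cluster, with cluster 6 at 48 and 72 hpf, cluster 1 mainly from 72 hpf B to 120 hpf A and cluster 2 mainly at 120 hpf.

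Cluster 1 had low counts as well as its own genes. Its median was 1013 UMIs per cell, against medians between 2124.5 and 4063 in the other clusters. Ribosomal protein genes made up 17.7% of its UMIs and between 34.8% and 51.2% in the others, and the 18 measured stress and dissociation genes summed to 14000 CPM in cluster 1 and between 3010 and 9290 CPM in the others. The part of these values in the matrix gene levels was not tested. Within cluster 1, osr1 had 628 CPM in 72 hpf B, 1620 in 96 hpf A, 1530 in 96 hpf B and 845 in 120 hpf A, the libraries with at least 10 of its cells. Col1a1a had 47500 CPM in 72 hpf B, 14300 in 96 hpf A, 11400 in 96 hpf B and 7440 in 120 hpf A. The value of 72 hpf B rested on 1 cell, which had 18508 UMIs and gave 2660 of the 3989 col1a1a UMIs (66.7%) of all matrix gene cells in that library. The same cell had 1255 UMIs of and2, a gene of the actinodin family known from fin folds, and 9 other matrix gene cells had at least 1 UMI of it. Cluster 1 of 72 hpf B had 12100 CPM of col1a1a and 852 CPM of osr1 without these 10 cells. That choice was made after the data had been seen. Abi3bpb, a collagen-binding matrix protein gene, was lowest in 72 hpf B with 574 CPM and highest in 96 hpf A, and had 2910 CPM in 96 hpf B and 2120 CPM in 120 hpf A. Clusters 1 and 2 both held osr1 at 120 hpf, with 845 CPM in cluster 1 and 314 CPM in cluster 2 of library 120 hpf A.

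Osr1, fn1a and pmp22a were higher in cells with more gate genes. In the 278 cells with 2 gate genes, the 127 with 3 and the 90 with 4 or more, osr1 had 136, 335 and 1060 CPM. Fn1a had 91.7, 293 and 1610 CPM in the same 3 groups, and pmp22a, a membrane protein gene that the study counts among corneal endothelium markers, had 1820, 4060 and 8530 CPM. Osr1 and fn1a kept this order in each of the 4 libraries with at least 10 cells in each group, but pmp22a had 3660, 3470 and 10500 CPM in 96 hpf A. Osr1 had 99.8 CPM in cells with 2 gate genes and 542 CPM in cells with 4 or more in 72 hpf B, 32.4 and 1720 CPM in 96 hpf A, 26.5 and 1950 CPM in 96 hpf B, and 230 and 970 CPM in 120 hpf A. For col1a1a in 72 hpf B, the cells with 4 or more had 70800 CPM, and 14300 CPM without the cells with and2. Not all mesenchymal genes went this way. Fmoda was lower in cells with 4 or more gate genes in all 4 libraries, and prrx1b in 3 of 4. In 72 hpf B the group with 4 or more included the cell with 18508 UMIs, and neither gene was read there without it. Without the cells with and2, osr1 and pmp22a of that group had 963 and 11300 CPM, in place of 542 and 7260 CPM. Epithelial genes fell off, with krt4 at 4050, 2400 and 578 CPM in cells with 2, 3 and 4 or more. The groups with more gate genes had fewer UMIs per cell, with medians of 2973.5, 1888 and 1144, and a lower ribosomal sum. Stress genes summed to 6370, 7380 and 12500 CPM in the same order, and the part of these values in the other levels was not tested.

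**Figure D3:**
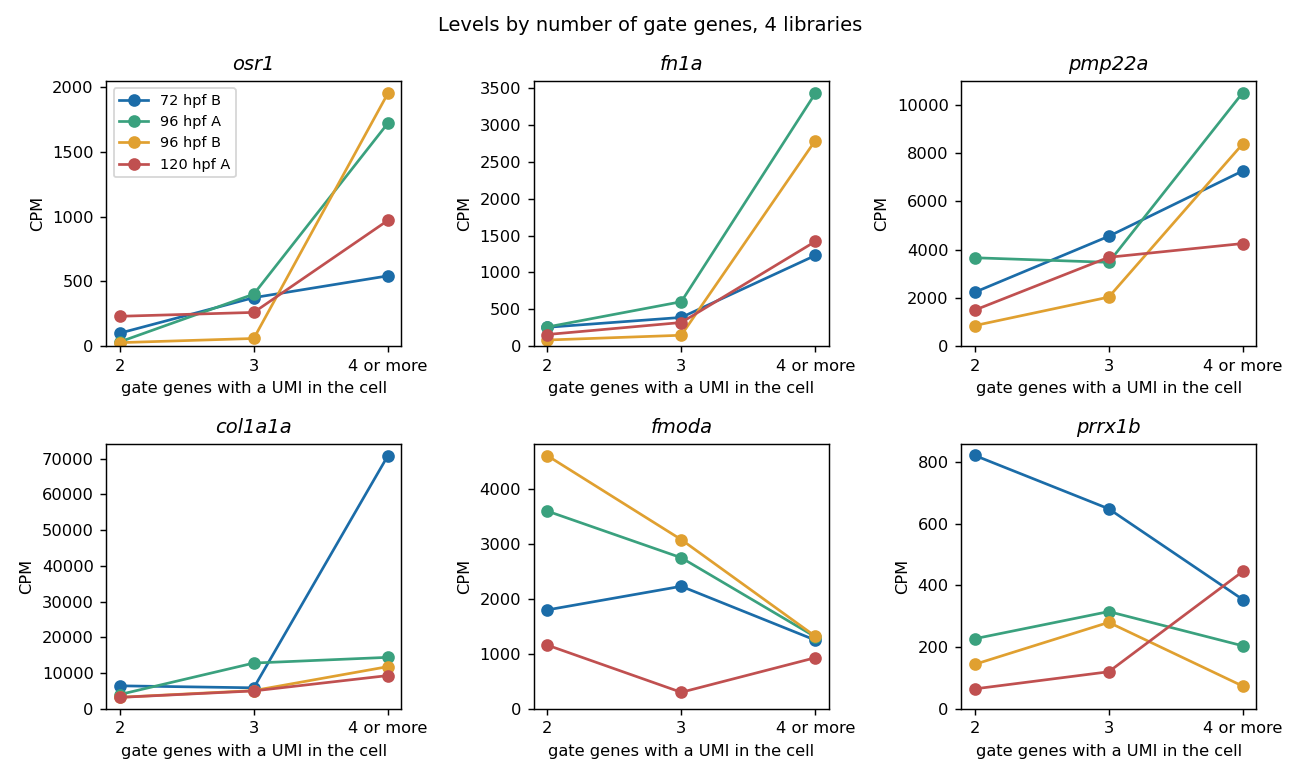
CPM of 6 genes outside the gate in matrix gene cells with 2, 3 and 4 or more gate genes, 1 line for each of 4 libraries. Osr1, fn1a, pmp22a and col1a1a are higher at 4 or more than at 2 in all 4 libraries, whereas fmoda is lower in all 4 and prrx1b in 3. Cells with a UMI of and2 are included.

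The share of cells passing the gate was compared over time after thinning, since a deeper cell meets the gate more easily. Of 725 and 513 cells at 48 hpf (A and B), 1.52% and 1.36% passed. The shares were 3.51% and 10.5% at 72 hpf, 7.12% and 3.6% (96 hpf), 3.38% and 1.31% (120 hpf) and 0.427% and 0% (144 hpf). Those of 72 and 96 hpf overlapped, and those of 48 hpf lay between the 2 libraries of 120 hpf. In an exact permutation test over the 10 libraries, the time points did not differ beyond the spread between replicates (p = 0.119, with 0.00106 the smallest of its 945 regroupings). Without library 72 hpf A, p was 0.0254, and without thinning it was 0.0317, with shares of 10.0% in 72 hpf B and 8.58% in 96 hpf A. Within the shared batches, the share was 7.12% at 96 hpf against 10.5% at 72 hpf, 3.38% at 120 hpf against 3.6% at 96 hpf, and 0.427% at 144 hpf against 1.31% at 120 hpf. In sorted cells, a share also moves with how many other GFP+ cells were sorted.

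Matrix gene cells were next compared with the 755 annular ligament cells, those with scinla at 1% or more of their UMIs. The annular ligament is the fish structure at the angle between iris and cornea. UMIs were summed per library and class, and classes with at least 10 cells were compared within each of 6 libraries from 72 hpf B to 144 hpf A with edgeR's quasi-likelihood test, with the gate and exclusion genes left out. Of 2298 genes, 600 (26.1%) passed a false discovery rate of 0.05, of which 333 were higher (14.5% of all tested) and 267 lower (11.6%) in the matrix gene cells. The cells were chosen by matrix genes, and the classes were set apart by scinla. A gene that goes with either from cell to cell is not independent of the choice. The filter on low counts was also set by class. A gene near 0 in 1 class was thus tested only if its counts were high enough in the other. This goes for fn1b, angptl7, igfbp5b, ntn1a, rgs5a, dlx5a, ebf3a and meis1b below. The direction and lack of overlap of such genes, and list counts that hold them, are not independent of that filter. The 6 libraries came from 3 batches.

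Fibrillar collagens were higher in the matrix gene cells throughout. All 7 tested of 23 listed were higher, with a median log2 fold change of 3.84, against -0.06 over all genes. Among them, col5a3b and col11a1a were highest in cluster 5, led by epithelial genes, with 1050 and 2590 CPM. In any other cluster they had at most 73.4 and 1280 CPM. Col11a1a had 884 CPM over all matrix gene cells and 998 CPM in the rest of the series. Col1a1a had 19700, 10200, 4050, 4510, 1170 and 1410 CPM in matrix gene cells of the 6 libraries in time order, against 1040, 187, 263, 137, 51.7 and 22 CPM in annular ligament cells (log2 fold change 4.70 ± 0.24 SE, edgeR adjusted p = 1.79e-09). Each library showed it, and the groups did not overlap. Without the cells with and2 the fold change of col1a1a was 4.43 ± 0.37. Col1a2 was lower in fold (2.75 ± 0.21). Of 39 genes for collagen folding, cross-linking and secretion, 11 were tested, 7 were higher and 0 lower. They included pcolcea, which helps cut procollagen (6.22 ± 0.44), and sparc, a collagen-binding protein gene at 3840 CPM against 1890 CPM by median (0.91 ± 0.20).

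Adhesive matrix genes went the same way, with 9 of 14 tested higher and 0 lower (median log2 fold change 1.11). Fn1b had between 163 and 895 CPM in matrix gene cells, with a median of 192, against between 0 and 5.44 CPM with a median of 0.873 (log2 fold change 6.66 ± 0.38, edgeR adjusted p = 4.1e-09). Angptl7, a secreted factor of the mammalian corneal stroma, had 203 UMIs in matrix gene cells and 0 in annular ligament cells of these libraries. Against the limit of 3 counts over the group it was at least 195-fold higher. Of the 6 tested keratocyte genes of mammals, 4 were higher, the others being tgfbi, thbs4b and abi3bpb. Of 5 tested proteases and inhibitors 4 were higher, led by mmp14a, a membrane-bound collagenase (1.67 ± 0.22).

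Signalling genes were higher in part. Igfbp5b, an insulin-like growth factor binding protein gene, had between 238 and 1820 CPM (median 426), against between 2.06 and 19.3 CPM (median 8.13). The fold change was 6.57 ± 0.40 on the log2 scale (edgeR adjusted p = 6e-09), without overlap. Of 10 tested growth factor genes of fibroblasts 7 were higher, among them cxcl12a, a chemokine gene (3.88 ± 0.40), and 1, igf2a, was lower. Of 15 tested TGF-beta and BMP genes 7 were higher and 0 lower, led by fstl1b, fstb, bmp2b and bmp4. Of 10 tested Wnt genes 3 were higher (fzd7a, dkk1a and fzd7b) and 1, the inhibitor gene frzb, was lower. Guidance genes followed, with 5 of 7 higher and 1, nrp2b, lower, and were led by ntn1a (netrin), at 146 against 0 CPM by median. Rgs5a, a regulator of G proteins known from mural cells, had a median of 596 CPM against 0.53 CPM (8.68 ± 0.54). The mural genes kcnj8 and abcc9 were near 0 in the matrix gene cells (0 and 3.42 CPM) and in the rest of the series (0.125 and 0.894 CPM). The 12 measured mural genes summed to 1170 CPM in the matrix gene cells, 499 CPM in annular ligament cells and 273 CPM in the rest of the series.

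Transcription factors were divided. Of 21 tested periocular mesenchyme factors, 7 were higher and 6 lower. Higher were ebf3a (4.17 ± 0.36), meis1b (4.0 ± 0.38) and eya1 (2.77 ± 0.29), none of which overlapped. Ebf3a and meis1b had at most 14.4 CPM in annular ligament cells, so the count filter let them in only through the matrix gene cells. Osr1 had between 152 and 632 CPM in matrix gene cells, against 174 CPM in annular ligament cells of 72 hpf B, 1.81 CPM in those of 96 hpf B and 0 in the other 4 libraries. It was higher in 6 of 6 libraries (5.72 ± 1.18, edgeR adjusted p = 0.0183). Without library 96 hpf A or 120 hpf A it did not pass, with an adjusted p of up to 0.0566. Lower were lmx1bb (-2.16 ± 0.30) and pitx3 (-3.03 ± 0.38), homeobox genes of anterior segment development. Pitx3 had between 32.7 and 233 CPM in matrix gene cells (median 73), against between 518 and 784 CPM (median 600). Dlx5a, a jaw factor, had between 66.8 and 252 CPM (median 117), against 1.37 CPM at most (6.78 ± 0.44).

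Genes lower in matrix gene cells included those of the annular ligament itself. Genes that go with scinla from cell to cell are not independent of how the classes were chosen. Of 14 listed, 13 were tested and 7 were lower and 1, cldn11a, higher. Hgd, an enzyme of tyrosine breakdown, had between 223 and 856 CPM with a median of 413, against between 618 and 2330 CPM with a median of 1260 (-1.71 ± 0.26). The ranges overlapped, whereas tenomodulin (tnmd, -1.76 ± 0.24), fxyd1 (-2.05 ± 0.25) and the phosphatase gene alpl (-3.23 ± 0.32) did not overlap. Outside the lists, alcama (-2.73 ± 0.33) and sgk1 (-2.17 ± 0.25) were lower, and htra1b, a secreted protease gene, was higher (6.93 ± 0.40). Of 20 tested cell division genes 8 were lower, but tyms was higher in 96 hpf A. Stress genes moved in both directions, 4 higher and 2 lower of 16, and 14 of 82 ribosomal genes were lower.

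The make-up of the matrix gene cells moved with part of these results. The 18 epithelial genes summed to between 5650 and 19500 CPM in matrix gene cells of these 6 libraries, against 4900 CPM over all annular ligament cells, and epcam was higher than in annular ligament cells (4.61 ± 0.35). The part of the epithelial genes in the other differences was not tested gene by gene. With clusters 3, 4 and 5 left out, a choice made after the data had been seen, 468 of 1042 genes passed, of which 204 were higher and 264 lower. This also took away cluster 4, with the highest dcn and kera of the clusters, and cluster 3, led by division genes. Col1a1a, fn1b, igfbp5b and osr1 then had log2 fold changes of 5.24, 7.90, 7.40 and 6.97, and pitx3 of -4.42, each past the threshold.

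**Figure D4:**
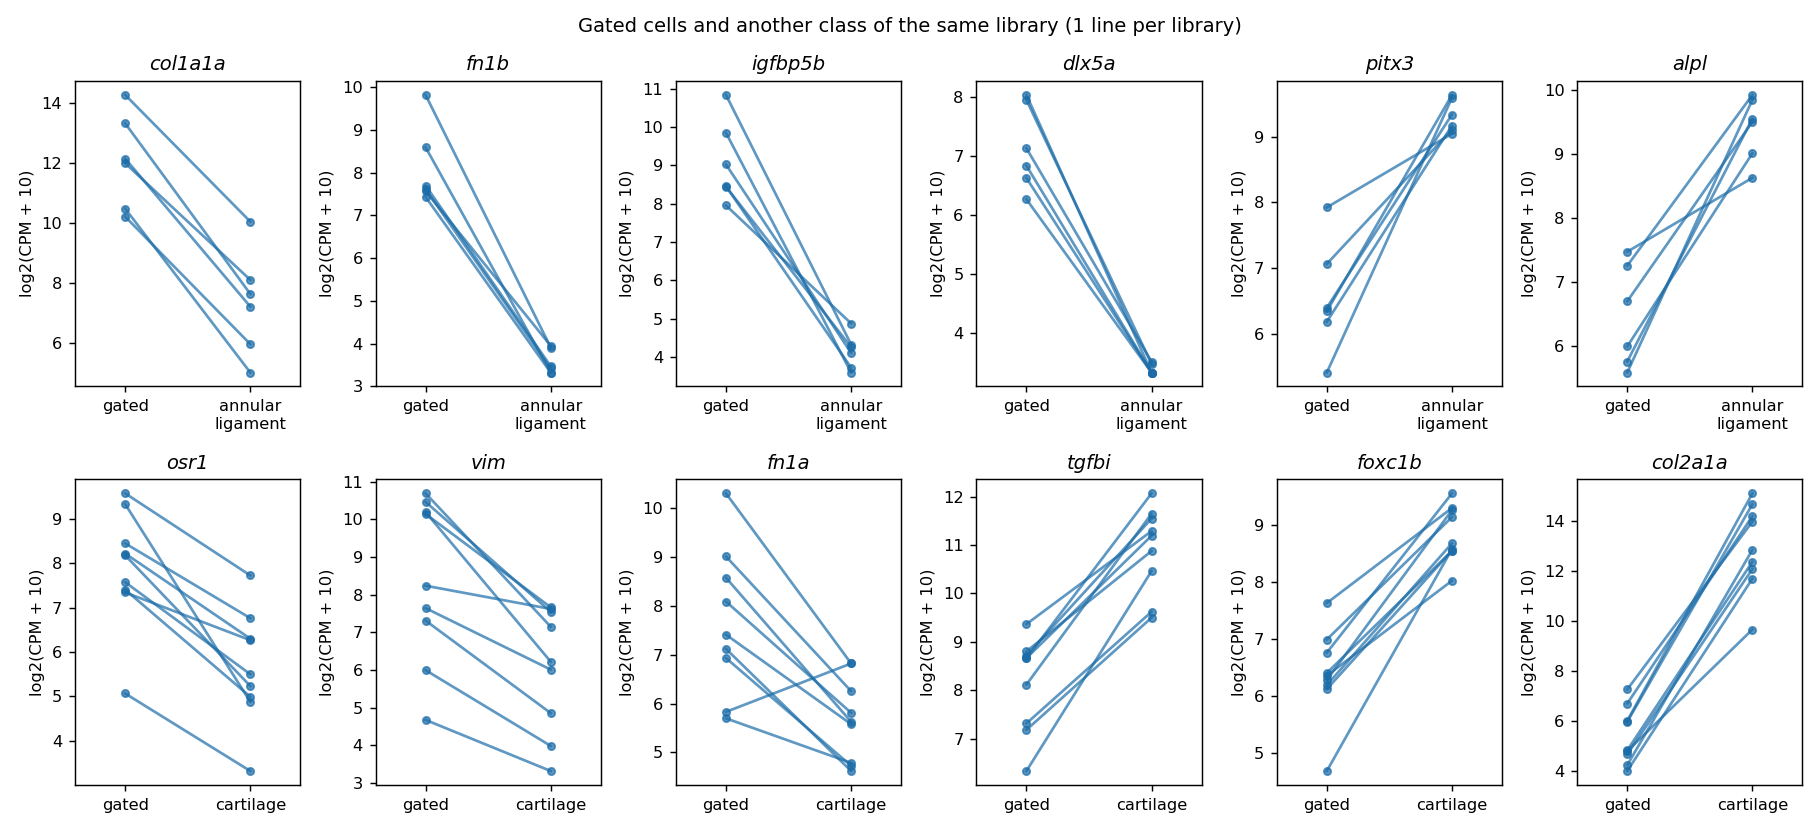
Level of 6 genes each, as log2(CPM + 10), in matrix gene cells (gated) and in annular ligament cells (top, 6 libraries) or cartilage cells (bottom, 9 libraries), with 1 line per library. Col1a1a, fn1b, igfbp5b and dlx5a drop to the right in every library and pitx3 and alpl climb. Below, osr1 and vim drop, fn1a drops in 8 of 9, and tgfbi, foxc1b and col2a1a climb.

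Against the 866 cartilage cells, those with UMIs of at least 2 of the 3 cartilage genes, the difference lay in other genes. Matrix gene cells had to lack all 3, so a gene that goes with them from cell to cell is not independent of the choice. All 9 libraries with matrix gene cells entered, and 232 of 1860 genes passed (12.5%), 84 higher (4.52%) and 148 lower (7.96%) in the matrix gene cells. Osr1 had between 23.5 and 749 CPM with a median of 279, against between 0 and 201 CPM with a median of 35.2. It was higher in 9 of 9 libraries (log2 fold change 2.27 ± 0.28, edgeR adjusted p = 0.000124), although the ranges overlapped. Vimentin (vim), an intermediate filament of mesenchyme, was higher in 9 of 9 (2.61 ± 0.31), and fn1a in 8 of 9 (2.51 ± 0.31).

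Collagens were split between the classes, which had themselves been set apart by col9a2, col9a3 and cnmd. Of 8 tested, 4 were higher and 4 lower. Col2a1a, the main collagen of cartilage, had between 6.14 and 144 CPM with a median of 18.6, against between 799 and 35000 CPM with a median of 7320 (-8.25 ± 0.37). The lower ones also included col2a1b, col11a1a and col11a1b, chains found together in cartilage fibrils. The higher ones were col1a1a (0.85), col1a2 (0.88), col1a1b (1.39) and col5a3b (3.44) on the log2 scale. Without the cells with and2, col1a1a had 0.65 ± 0.24 and no longer passed (edgeR adjusted p = 0.0979). Col5a3b, a type V collagen chain gene, lay mainly in cluster 5, where col5a3b had 1050 CPM, against at most 73.4 CPM in any other cluster, and it was not tested without clusters 3, 4 and 5. Of 13 tested genes of collagen folding and secretion 7 were lower and 0 higher, among them plod1a and plod3, lysyl hydroxylases, and sparc (-0.80 ± 0.15). Without clusters 3, 4 and 5, plod3, kdelr3 (another of the 7) and col11a1b did not pass. Their edgeR adjusted p-values were then 0.0545, 0.0582 and 0.0598, whereas plod1a and sparc passed.

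Both foxc1 genes were lower in the matrix gene cells than in cartilage cells. Foxc1b had between 15.6 and 188 CPM with a median of 71.8, against between 250 and 743 CPM with a median of 400 (-2.58 ± 0.21, edgeR adjusted p = 1.22e-06). Foxc1a had a median of 59.9 against 468 CPM (-2.62 ± 0.27), and the 2 classes did not overlap for either gene. Of 27 tested periocular factors, 7 were higher and 8 lower. The others lower included irx1b (-3.31 ± 0.47) and lmx1bb, and twist2, twist3 and prrx1b were higher. Tgfbi, an adhesive matrix gene mutated in human corneal dystrophies, had a median of 393 CPM against 2330 CPM (-2.84 ± 0.21) and did not overlap. Against annular ligament cells it was higher (2.36 ± 0.27). Of the 5 tested keratocyte genes of mammals, 2 were lower and 1, abi3bpb, was higher (1.44 ± 0.24). The other lower one was angptl7, with a median of 81.9 CPM against 667 CPM (-2.58 ± 0.64, edgeR adjusted p = 0.0286). For angptl7 the ranges overlapped, and it did not pass without 72 hpf A, 96 hpf A, 96 hpf B, 120 hpf A or 120 hpf B (adjusted p of up to 0.0933), nor without clusters 3, 4 and 5 (-1.7, adjusted p = 0.179).

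Signalling genes were more often lower than higher against cartilage cells. Of 9 tested growth factor genes of fibroblasts 1 was higher and 3 were lower, namely fgfr4 (-1.08), fgfr3 (-1.59) and igf2b (-0.87, and 0.08 without clusters 3, 4 and 5). Of 15 tested TGF-beta and BMP genes 2 were higher and 5 lower. Of the lower ones, tgfb3, id2a and smad6b did not pass without clusters 3, 4 and 5 (edgeR adjusted p = 0.395, 0.145 and 0.301). Each of them also failed with some 1 library left out (edgeR adjusted p of up to 0.111), whereas fstb, a higher one, passed in both cases. Of 6 tested guidance genes 0 were higher and 3 lower, led by ntn1a (-1.86 ± 0.26). Rbp4, a retinol carrier, was higher in 9 of 9 libraries (1.89 ± 0.27) and aldh1a2, which makes retinoic acid, in 8 of 9 (1.58 ± 0.44), though aldh1a2 did not pass when any 1 of 6 libraries was left out, namely 48 hpf A or B, 72 hpf A, 96 hpf A, 120 hpf A or 120 hpf B. The growth factor gene that was higher, igfbp5b, was so in 9 of 9 (1.5 ± 0.33). All 3 called Wnt genes were lower, namely sfrp2, fzd8a and sfrp1a, of 5 tested. Of 7 tested epithelial genes 6 were higher, and cyt1 (3.52 ± 0.73) had a log2 fold change of -0.33 once clusters 3, 4 and 5 were left out. With these clusters left out 248 genes passed, 146 higher and 102 lower, so that most of the called genes were then higher. S100a10b, at 3.51 ± 0.35 among all cells, had 0.64 and an adjusted p of 0.41. Osr1, vim and fn1a had 3.61, 3.2 and 3.86, and foxc1b and tgfbi -1.99 and -2.55, all past the threshold. Pigment cell genes, 13 of 16 listed being measured, summed to 23.4 CPM in matrix gene cells and 8370 CPM in cartilage cells. By library the cartilage cells had 11800 CPM in 48 hpf B, 27500 CPM in 72 hpf B, 44600 CPM in 96 hpf A and at most 342 CPM elsewhere, and the part of this in the differences was not tested.

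The cells with both matn4 and cthrc1a numbered 64. The study classed corneal endothelium by pmp22a and ctnnb2, and described matn4 and cthrc1a as genes associated with it. Pmp22a had 2940 CPM in the 64 cells, 2930 CPM in all matrix gene cells and 12600 CPM in cluster 6. For ctnnb2 the values were 155, 214 and 193 CPM, so these markers did not set the 64 cells apart. Only 48 hpf A and 72 hpf A, both of V2 chemistry, had at least 10 of each class. Of 1577 genes, 0 passed in edgeR (0%) and 0 in DESeq2, with 85 and 18 at an unadjusted p under 0.05. Osr1 was the gene of lowest p. It had 180 and 749 CPM in the matrix gene cells of 48 hpf A and 72 hpf A, against 13.5 and 66.9 CPM in the others (log2 fold change 3.63 ± 0.52, edgeR adjusted p = 0.0832). Without clusters 3, 4 and 5, only cells of cluster 6 were left in these libraries, 13 in 48 hpf A and 28 in 72 hpf A. The log2 fold change of osr1 was then 4.95 (edgeR adjusted p = 0.0115), and 8 of 933 genes passed. Osr1 is a leading gene of cluster 6, which was formed from these same cells, so this value is not independent of the choice. Col1a2 had 2300 and 3720 CPM against 1310 and 1960 CPM (1.01 ± 0.17, adjusted p = 0.119). For pmp22a there were 3340 and 6740 CPM in the matrix gene cells, against 5590 and 2740 CPM, so that it was higher in 1 library and lower in the other. With 2 libraries these values do not show that the classes are alike.

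Over time, few genes of the matrix gene cells were called. With at most 2 libraries per time point, this does not show that few genes changed. A test over the 5 time points called 1 of 3596 genes (0.0278%), lpin1, a lipid phosphatase gene, with 511 at an unadjusted p under 0.05 and 76 called by DESeq2. A linear trend per 24 h called 108 (3.0%), of which 66 rose (1.84%) and 42 fell (1.17%). In libraries A and B, lpin1 had 0 and 7.82 CPM at 48 hpf, then 0 and 4.95 CPM (72 hpf), 111 and 50.7 CPM (96 hpf) and 306 and 162 CPM (120 hpf), with 1100 CPM in 144 hpf A. Its slope was 2.38 ± 0.25 log2 units per 24 h (edgeR adjusted p = 0.000828). These fits had no batch term. With batch as a term, added after the data had been seen, 0 genes had a trend that passed in edgeR, with 325 at an unadjusted p under 0.05. The slope then rests on 3 batches with 2 libraries each, and that of lpin1 was 2.86 (adjusted p = 0.114). Within the batches lpin1 had 111 CPM at 96 hpf against 4.95 CPM at 72 hpf, 306 CPM at 120 hpf against 50.7 CPM at 96 hpf, and 1100 CPM at 144 hpf against 162 CPM at 120 hpf. Each later library lay above those of 48 and 72 hpf. In the test over time points it did not pass without 96 hpf A, 96 hpf B or 144 hpf A.

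The filament gene vim had 53.9 and 15.6 CPM at 48 hpf, then 190 and 149 CPM (72 hpf), 1160 and 292 CPM (96 hpf) and 1400 and 1120 CPM (120 hpf), with 1640 CPM in 144 hpf A (slope 1.59 ± 0.22). Only the libraries of 96 and 120 hpf overlapped. Within the batches vim had 1160 CPM at 96 hpf against 149 CPM at 72 hpf, 1400 CPM at 120 hpf against 292 CPM at 96 hpf, and 1640 CPM at 144 hpf against 1120 CPM at 120 hpf, and with batch as a term its slope was 1.89 (adjusted p = 0.344). Slopes were also positive for znf395b (1.41 ± 0.22), and sesn1, a stress-responsive inhibitor of growth signalling, rose likewise (1.26 ± 0.18). Of the lists, 3 of 13 tested annular ligament genes rose (lxn, hpdb and hgd), 2 of 8 keratocyte genes (ptgdsb.2 and angptl7) and 2 of 6 mural genes (acta2 and tagln). With batch as a term the slopes of hgd, acta2 and tagln were -0.22, -1.22 and -1.13. Acta2 was at 1010 CPM in 144 hpf A and at 901 CPM in 120 hpf B, and at most 212 CPM in any other library. Rbp4 rose by 1.48 ± 0.33 per 24 h, although 96 hpf A had the highest level, 14600 CPM. The slopes of lpin1, vim, znf395b and sesn1 passed whichever 1 library was left out, and those of rbp4, acta2, tagln, hgd, hpdb, angptl7 and ptgdsb.2 did not pass without 48 hpf A.

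Cell division genes made up 5 of the 42 that fell, with 25 tested and 0 that rose. The gene rrm2, which makes nucleotides for DNA replication, had 748 and 524 CPM at 48 hpf, then 491 and 604 CPM (72 hpf), 200 and 66.8 CPM (96 hpf) and 27.3 and 105 CPM (120 hpf), with 0 in 144 hpf A (-1.21 ± 0.23). The 48 and 72 hpf libraries all lay above the later ones. Within the batches it was lower at the later time in all 3 pairs, and with batch as a term the slope of rrm2 was -1.82 (adjusted p = 0.398). The keratin krt4 fell (-1.31 ± 0.25), but its slope was 0.28 without clusters 3, 4 and 5. It did not pass without 48 hpf B or 144 hpf A, nor rrm2 without 48 hpf A. No collagen of 9 tested and no periocular factor of 35 passed, and osr1 had a slope of 0.21 ± 0.28 (adjusted p = 0.67). Without the V2 libraries 1 gene, lpin1, passed. Without library 48 hpf A 19 genes passed, without 72 hpf A 44, without 72 hpf B 55, without 120 hpf A 56 and without 144 hpf A 33. With clusters 3, 4 and 5 left out 78 of 1554 genes passed, 30 of them among the 108.

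**Figure D5:**
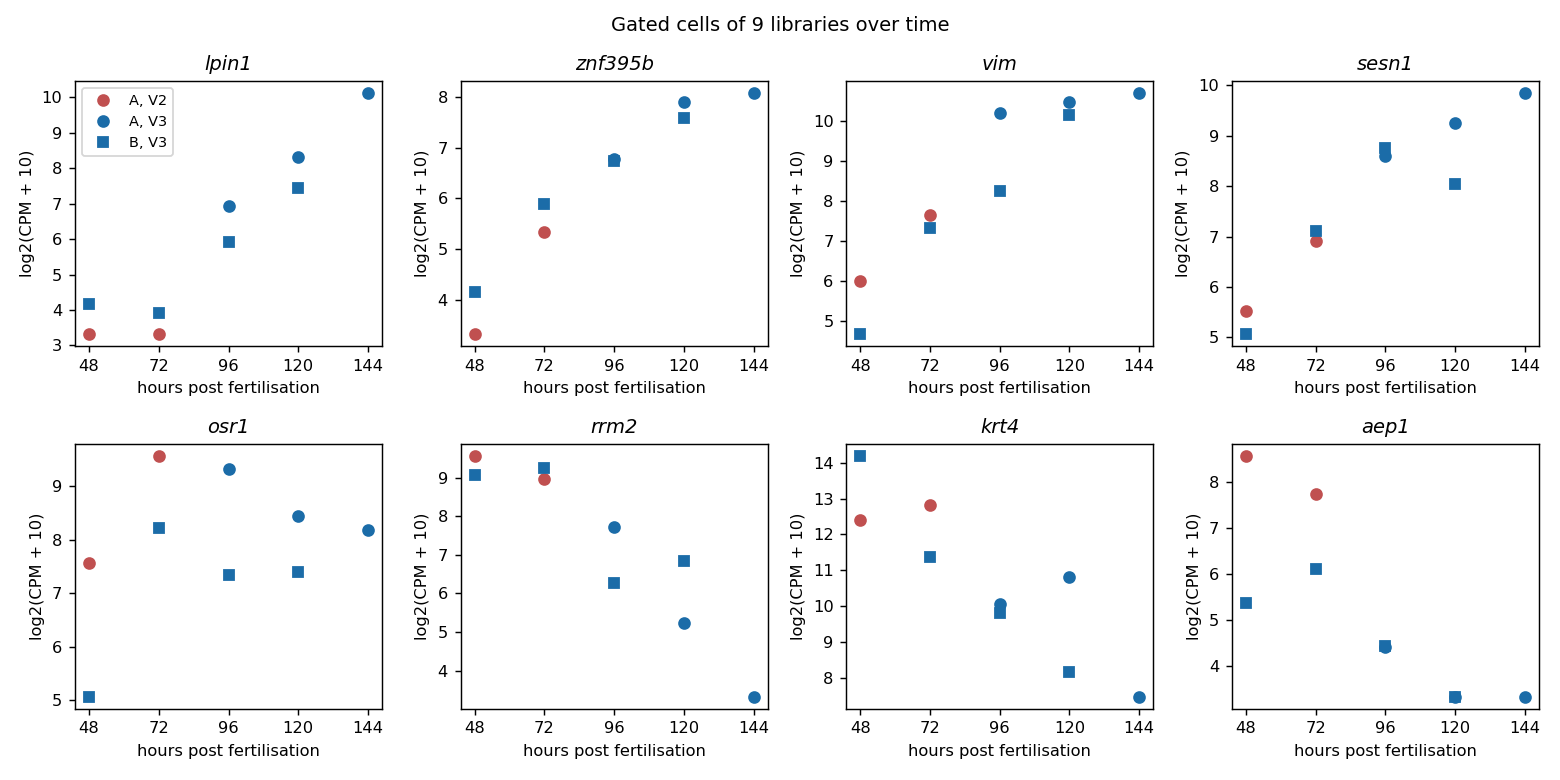
Level of 8 genes, as log2(CPM + 10), in matrix gene cells of 9 libraries against hours post fertilisation, with circles for library A, squares for B and red for V2 chemistry. Lpin1, znf395b, vim and sesn1 are highest at 144 hpf, rrm2 and krt4 are lowest there, and osr1 has no trend past the threshold.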

How the data were processed

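GFP+ eye cells of 5 time points were measured by 10x single cell sequencing. The authors deposited raw UMI counts for RefSeq features, without normalization, and a table of cells with library, batch and chemistry. The submitters' processing notes name Cell Ranger 6.0 and GRCz11, and an eGFP sequence was added. The labels name a v2 kit, the methods V3, and the table both. A combined matrix subsampled to equal reads served only as an alternative. Here 16283 features were summed to 15413 symbols and all cells kept. Antisense and near-identical genes were not separated. UMIs were summed per library and class (at least 10 cells) and tested with edgeR 4.0.16 (TMM, filterByExpr, quasi-likelihood F test, Benjamini-Hochberg over all genes tested, R 4.3.3), with the library as a block between classes. DESeq2 1.42.0 was an alternative. The SE given for edgeR was derived from the test, as the absolute log2 fold change or slope divided by the square root of F. The libraries were pools of embryos, so p-values measure the spread between pools.

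Matrix gene cells were clustered with igraph 0.11.9 and leidenalg 0.10.2 (30 principal components, 15 neighbours, Leiden resolution 0.5). Library, batch and chemistry were not corrected for. Doublets were scored by simulation with scanpy 1.11.5. In each library the cells of highest score were called, up to a rate of 0.8% per 1000 cells, and kept. The rule, the gene lists and the tests were chosen with earlier results of these data known. Named were the gate genes and osr1, in each list the 3 highest members and up to 4 called, and outside the lists up to 8 called genes per direction with a mean of at least 50 CPM in the higher group. Retinal genes, cluster leaders, icn, kcnj8, abcc9, elnb, and2 and genes given as examples of clusters were named after their values were seen. The fit was tested on simulated data. Sequences were not analysed here.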

Additional observations from a re-analysis of the deposited data

Results flagged for a closer look

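In the comparisons with annular ligament and cartilage cells, 145 sets of values over libraries were looked at for a library far from the others, and 10 were found, where chance gives about 1 in 20. Each value is the log2 ratio of matrix gene cells over the other class in 1 library, after 10 CPM had been added. Against annular ligament cells, library 72 hpf B was lowest for krt15 (1.58, the other 5 between 3.94 and 4.70), for ccdc80 (1.02, the others between 2.83 and 3.76) and for krt8 (-0.07, the others between 0.79 and 1.12). In that library 12 annular ligament cells entered. Library 96 hpf A was highest for spry4 (5.06, the others between 2.66 and 3.45) and for the replication gene tyms (0.48, the others between -1.75 and -0.92). Library 96 hpf B was lowest for mmp14a (0.93, the others between 1.73 and 2.17).

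Against cartilage cells, all 4 were in library 48 hpf B, which held 16 matrix gene cells and 24 cartilage cells. It was lowest for krt94 (-2.36, the other 8 between 1.02 and 2.49) and add3a (-2.38, the others between 0.15 and 2.68), and highest for s100u (3.14, the others between 0.61 and 1.5) and dlx3b (5.33, the others between 1.08 and 3.10).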

How the results depend on the processing

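The comparison with annular ligament cells called 600 genes, with 1104 without a filter on low counts and 247 with no replicate block for the library. Leaving out 1 library gave 355 to 688. For cartilage cells, 232 became 757 without the filter, 47 with no replicate block and 146 to 218 without 1 library. For matn4 and cthrc1a cells, 0 became 76 without the filter and 8 without clusters 3, 4 and 5, which left cluster 6 alone. For these cells, 6 other alternatives and leaving out a library could not be fitted with 2 libraries. The trend called 108 genes, against 353 with DESeq2, 306 without the filter, 71 with epithelial genes under 2%, 1 with at least 3 gate genes, 1 without V2 libraries, 0 with batch as a term and 19 to 131 without 1 library. The test over time points called 1, against 76 with DESeq2, 430 without the filter, 10 without clusters 3, 4 and 5, 2 without cells with an and2 UMI, 9 without V2 libraries, 0 with at least 3 gate genes, 0 with the combined matrix and 0 to 7 without 1 library. The exact permutation test of the share had p = 0.119, 0.0317 without thinning, and 0.0254 to 0.299 without 1 library. Leiden resolution 1 gave 9 clusters in place of 6.

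The letters A and B do not pair libraries, as differences between them correlated between -0.23 and 0.18 over time points. With the letter as a replicate block the trend called 70 genes and the test over time points 0. Directions turned for osr1 over time (-0.48 with at least 3 gate genes, -0.29 without clusters 3, 4 and 5, -0.01 with at least 20 cells, and -0.01 to 0.42 without 1 library), with batch as a term for krt97 (0.36), hgd (-0.22), acta2 (-1.22) and tagln (-1.13) over time, and without clusters 3, 4 and 5 for krt4 over time (0.28) and against cartilage for cotl1 (-1.15), igf2b (0.08), cyt1 (-0.33) and mcm5 (-1.19). The causes were not tested. Depth limits the smallest library to steps of 3 counts at 55.8 CPM.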
